A study of Mus musculus with 6 samples.

Results

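The interferon regulatory factor (IRF) genes Irf1, Irf2, Irf3, Irf4, Irf5, Irf7, Irf8 and Irf9 were taken by symbol from a table of 23951 genes and are described here in mouse CD8+ T cells. All 8 were found in the table, and 7 of them reached a mean of 1 FPKM (fragments scaled to transcript length and library size) and were tested. The exception was Irf5. RNA was measured in 2 groups of 3 libraries each. The first, called DKO here, carries the genotype label Tcf1-/-Lef1-/- and came from animals with floxed alleles of the genes for both factors. The second, called WT, was labelled wild type at these genes. Tcf1, the product of Tcf7, and Lef1 are T cell transcription factors with related HMG-box domains. Both groups carried hCD2-Cre, a recombinase driven by human CD2 sequences, and the Rosa26-lsl-GFP reporter, which marks cells in which the recombinase has acted. From the spleen, naive cells with the surface phenotype GFP+ TCRbeta+ CD62Lhi CD44lo-med CD8+ were sorted, and all 6 libraries were made after 72 h of culture with IL-7 and IL-15, which sustain T cell survival and homeostatic division. The sources used here do not state the animals' age. Nor do they tie each library to its own animal or culture, so the p-values rest on a spread between libraries that may be partly technical. Libraries are named by the column numbers 0, 1 and 2 of the deposited table.

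IRF proteins bind DNA through a domain with a conserved tryptophan repeat that recognises GAAA repeats, as in the interferon-stimulated response element (ISRE). IRF3, IRF5 and IRF7 are activated by phosphorylation downstream of nucleic acid sensors and induce interferon genes, and IRF9 is part of ISGF3, the complex that transmits type I interferon signals to its target genes. IRF1 activates antigen presentation genes downstream of interferon-gamma and IRF2 can compete with it, while IRF4 and IRF8 act with partners such as BATF-JUN dimers or the ETS factor PU.1 in lymphoid and myeloid cells.

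The letters before the gene starts are shown for the genes whose windows held a match to an interferon-response element. STAT dimers bind the gamma-activated site (GAS), searched as TTCNNNGAA, and IRF proteins and ISGF3 bind the ISRE, searched by its core of a pair of GAAA with any 2 bases between them. Both strands were searched in the 250 bases before each RefSeq gene start (GRCm38.p6). Capitals mark the matches.
Irf1, chr11:53769764-53770013, plus strand: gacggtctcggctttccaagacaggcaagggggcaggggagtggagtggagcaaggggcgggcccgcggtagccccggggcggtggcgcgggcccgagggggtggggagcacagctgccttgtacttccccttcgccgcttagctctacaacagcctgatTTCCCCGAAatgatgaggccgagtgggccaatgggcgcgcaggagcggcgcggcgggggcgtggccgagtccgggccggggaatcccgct
Irf2, chr8:46739495-46739731, plus strand: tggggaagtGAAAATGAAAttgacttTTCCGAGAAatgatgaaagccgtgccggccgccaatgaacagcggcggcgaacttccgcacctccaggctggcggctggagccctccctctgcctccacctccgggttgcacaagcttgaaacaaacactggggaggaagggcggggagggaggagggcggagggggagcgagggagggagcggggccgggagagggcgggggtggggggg
Irf8, chr8:120736108-120736357, plus strand: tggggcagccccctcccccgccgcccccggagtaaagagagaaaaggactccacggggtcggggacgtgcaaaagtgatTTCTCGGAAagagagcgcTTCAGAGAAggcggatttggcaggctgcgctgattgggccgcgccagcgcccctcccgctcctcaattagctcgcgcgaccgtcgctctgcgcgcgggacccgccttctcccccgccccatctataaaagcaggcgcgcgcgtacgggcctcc
Irf1 held 1 GAS match, TTCCCCGAA, 90 to 82 bases before its start. Irf8 held 2, TTCTCGGAA at 171 to 163 bases and TTCAGAGAA at 153 to 145 bases. Irf2 held the ISRE core GAAAATGAAA at 241 to 232 bases and the GAS match TTCCGAGAA at 224 to 216 bases before its RefSeq start. The Irf2 sequence is printed up to the base before the GENCODE gene start. Over 11 windows of the 8 genes (some genes have several starts), 3 held a GAS match and 1 an ISRE core match, while 7.02% and 2.98% of 32851 windows of all genes held one. The Tcf/Lef core CTTTGAT was in none of the 11 windows and CTTTGTT was in 1, a second start of Irf9, at 131 to 125 bases. Of all windows 3.21% held CTTTGAT and 5.03% held CTTTGTT. These matches are letters in a window and carry no measurement of binding.

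Both targeted genes were lower in all 3 DKO libraries than in any WT library. Tcf7 stood at 288, 270 and 277 FPKM in DKO and at 564, 555 and 532 FPKM in WT (log2 fold change -0.98, SE 0.092, limma adjusted p = 0.0041), and Lef1 at 48.5, 51.8 and 52.2 FPKM in DKO and at 132, 105 and 157 FPKM in WT (log2 fold change -1.33, SE 0.15, limma adjusted p = 0.0066). The values are per gene, and the labels do not say which exons were deleted. T cell markers, 12 in the table, summed to 5217 to 6156 FPKM in DKO and 5605 to 6691 FPKM in WT. Of 15 B cell markers 2, Ms4a1 and Pax5, were listed at 0 FPKM in all 6 libraries. Others of that list were not low. Cd79b averaged 22.1 FPKM in DKO and 16.4 FPKM in WT, and Cd72 19.4 FPKM in DKO and 22.2 FPKM in WT. Between 10473 and 10551 genes reached 1 FPKM per library, and the absolute depth is unknown. DKO library 2 and WT library 0 had the highest shares of FPKM in small RNA rows, 19.7% and 15.9%, against 12.9% to 14.5% in the other 4 libraries. WT library 0 was only slightly above these. A fit without both, with 2 libraries a group, called 28 genes in place of 1144, and values that changed by over 1.5 times without them are given so. No other pair was left out together, so how much of this fall comes from having fewer libraries was not tested.

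The 8 genes spanned a wide range of levels in FPKM, which is per transcript length, and the order was nearly the same in both groups. Irf1 was the highest, at 206 ± 57.3 FPKM in DKO and 204 ± 44.4 FPKM in WT (SD, n = 3 each). In DKO it was followed by Irf9, Irf2, Irf3, Irf7, Irf4, Irf8 and Irf5, and in WT by Irf9, Irf2, Irf3, Irf7, Irf8, Irf4 and Irf5. Irf9 and Irf2 were not separated in either group, since the ranges of their libraries overlapped. In DKO the ranges of Irf2 and Irf3 and of Irf4 and Irf8 also overlapped, and the other neighbours were apart. Irf4 and Irf8 were the only pair to change places.

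**Figure D1:**
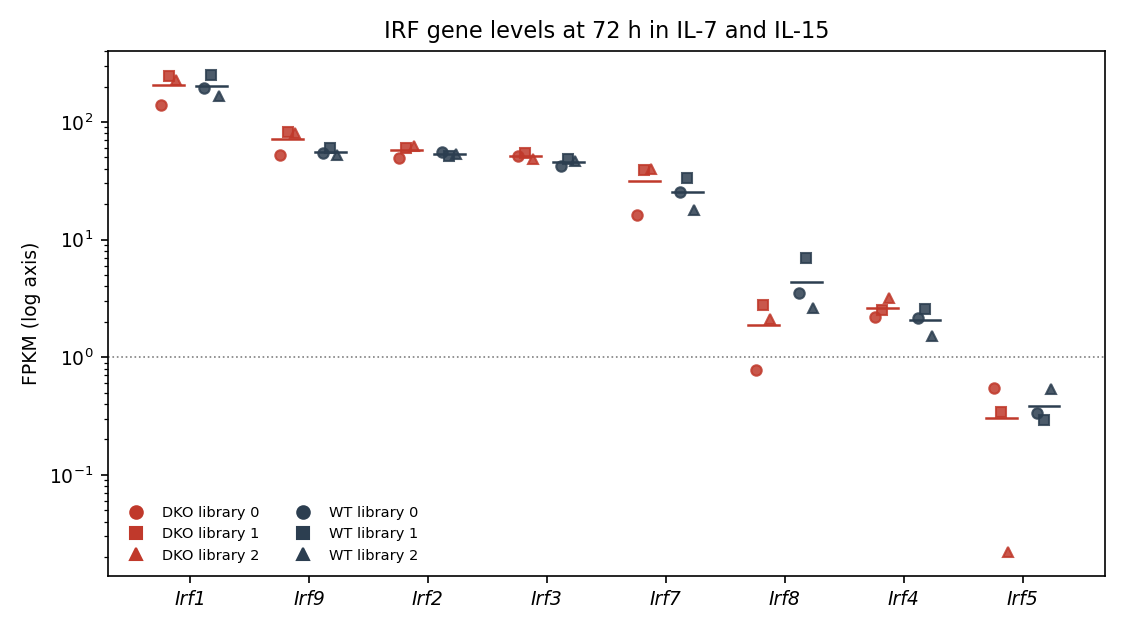
FPKM of the 8 IRF genes at 72 h on a log axis, for DKO libraries (red, left of each pair) and WT libraries (dark blue, right), with 1 symbol per library number, bars at the group means and a dotted line at 1 FPKM. Irf1 was the highest in every library, at 141 FPKM or more, Irf9, Irf2, Irf3 and Irf7 lay between 16.1 and 82.5 FPKM, Irf4 and Irf8 lay between 0.778 and 7.02 FPKM, and Irf5 stayed below 1 FPKM in all 6.

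Which of these genes differed between DKO and WT cells at 72 h was asked with limma on log2(FPKM + 1), adjusted over 10723 genes. Of the 7 tested IRF genes, 0 passed an adjusted p of 0.05 and 0 had an unadjusted p under 0.05. Of all tested genes 10.7% passed, 4.31% as higher and 6.36% as lower, and before adjustment 26.2% had a p under 0.05. Cuffdiff, in the authors' deposited table, called 1 of the 8 lower at q under 0.05, Irf8, and 0 higher, a rule that calls 16.3% of its genes, 9.87% as lower and 6.46% as higher. Shares from the authors' comparisons are over genes with an authors' p under 1, here 11555, and Irf5 is not among these. The median log2 fold change over the 7 genes was 0.17, and over all tested genes it was 0.0082. Counts of 0 do not show that the levels were equal, and the 95% interval of each difference is given with the gene.

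Irf8 (plus strand of chromosome 8, from 120736358 to 120756694, as all gene positions here from GENCODE M21 on GRCm38) encodes a factor needed for dendritic cell and monocyte development that is also expressed by B cells and activated T cells. It stood at 0.778, 2.76 and 2.1 FPKM in the DKO libraries and at 3.50, 7.02 and 2.62 FPKM in the WT libraries. The highest DKO library lay above the lowest WT library, so the groups overlapped, and both the lowest library, DKO 0, and the highest, WT 1, stood well away from the rest. The means were 1.88 ± 1.01 FPKM in DKO and 4.38 ± 2.33 FPKM in WT (SD, n = 3 each), a ratio of 0.428. The log2 fold change of Irf8 was -0.89 (SE 0.39, 95% interval -1.85 to 0.081, limma adjusted p = 0.22). It was -0.57 without DKO library 0 (limma adjusted p = 0.43) and -0.56 without WT library 1 (limma adjusted p = 0.44). Without 1 of the other 4 libraries it lay between -1.13 and -0.97, with limma adjusted p from 0.20 to 0.32. In the authors' deposited table the log2 fold change of Irf8 was -1.22 with q = 0.00064, and Irf8 is among the 603 genes they list (5.22% of its genes, counted as above), each with at least a 2-fold difference. With a pseudocount of 0.1 in place of 1 the fit over libraries also gave -1.22 (limma adjusted p = 0.22). Thus the Cuffdiff call and the test over libraries gave different answers for this gene.

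Other cell types that transcribe Irf8 were looked for by their markers. WT library 1, with the highest Irf8, also had the highest Lyz2, a lysozyme of myeloid cells, at 4.30 FPKM, against 0.0516 to 0.948 FPKM in the DKO libraries and 0.367 and 0.797 FPKM in the other WT libraries. The dendritic and progenitor cell receptor Flt3 was likewise highest there, at 1.88 FPKM, and stood at 0 to 1.09 FPKM in DKO and at 0.0151 and 0.959 FPKM in the other WT libraries. Cd74, the invariant chain of MHC class II, stood at 1.44 FPKM in WT library 1 and at no more than 0.617 FPKM elsewhere. These genes were picked after their values were seen. Over the whole lists, WT library 1 was the highest of the 6 for 10 of 15 myeloid and 4 of 13 dendritic markers. The same library was the highest for 3222 of 10723 tested genes. Several of the 10 myeloid markers were near 0 even there, such as Cd14 at 0.0756 FPKM and S100a8 at 0.260 FPKM. Other markers of these lists were highest in DKO libraries. Tyrobp, an adaptor of myeloid and natural killer cells, stood at 10.6, 6.70 and 4.01 FPKM in DKO and 2.31, 4.72 and 1.88 FPKM in WT. The Fc receptor gene Fcgr3 was highest in DKO library 0, at 0.867 FPKM. Of 15 myeloid markers 5 had a mean of at least 1 FPKM, with a summed level of 108 to 127 FPKM in DKO and 113 to 158 FPKM in WT. Most of that sum was Ctss, which averaged 103 FPKM in DKO and 122 FPKM in WT. Of 13 dendritic markers 3 reached a mean of 1 FPKM (287 to 380 FPKM summed in DKO, 200 to 359 FPKM in WT), and Clec9a was listed at 0 FPKM in every library. Most of the dendritic sum was Bst2, averaging 200 FPKM in DKO and 211 FPKM in WT, and Ccr9, averaging 122 FPKM in DKO and 44.2 FPKM in WT. B cell markers summed to 40.7 to 46.3 FPKM in DKO and 34.8 to 45.8 FPKM in WT, with 2 of 15, Cd79b and Cd72, at a mean of at least 1 FPKM. The sums thus rest on a few genes of each list. The part of such cells in the Irf8 values was not tested, and in bulk RNA fewer cells of a type cannot be told apart from less RNA per cell.

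Irf4 (plus strand of chromosome 13, from 30749226 to 30766976), the close relative of Irf8 that T cell receptor signals induce, had a higher mean in DKO than in WT. It stood at 2.18, 2.53 and 3.19 FPKM in DKO and at 2.17, 2.56 and 1.51 FPKM in WT. The groups overlapped, with DKO library 2 the highest and WT library 2 the lowest. On the log2 scale Irf4 differed by 0.24, DKO over WT (SE 0.18, 95% interval -0.19 to 0.68, limma adjusted p = 0.44). It was 0.10 without WT library 2, 0.14 without DKO library 2 and 0.36 without WT library 1. Within single libraries the ratio of Irf8 to Irf4, both in FPKM, was 0.356, 1.09 and 0.657 in DKO and 1.62, 2.74 and 1.74 in WT. This ratio did not overlap between the groups. It was chosen after the values were seen and was not tested.

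Irf1 (plus strand of chromosome 11, from 53770014 to 53778374) stood at 141, 248 and 230 FPKM in DKO and at 193, 253 and 166 FPKM in WT. The libraries of both groups were interleaved, with DKO library 0 the lowest of the 6. The log2 fold change of Irf1 was -0.0069 (SE 0.26, 95% interval -0.65 to 0.64, limma adjusted p = 0.99), and its sign depended on single libraries, at 0.25 without DKO library 0 -0.16 without DKO library 1 and -0.14 without both WT library 0 and DKO library 2. Irf2 (plus strand of chromosome 8, from 46739732 to 46847458), the relative that competes with Irf1 for the same elements, varied less. It stood at 49.4, 60.7 and 63.0 FPKM in DKO and at 55.4, 51.6 and 53.9 FPKM in WT, with DKO library 0 again the lowest. Irf2 had a log2 fold change of 0.097 (SE 0.11, 95% interval -0.17 to 0.36, limma adjusted p = 0.60). It was 0.20 without DKO library 0, 0.058 without DKO library 1, 0.032 without DKO library 2 and 0.055 without both WT library 0 and DKO library 2. The ratio of Irf2 to Irf1 within a library, in FPKM, was 0.352, 0.245 and 0.274 in DKO and 0.287, 0.204 and 0.324 in WT, and overlapped between the groups.

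Irf9 (plus strand of chromosome 14, from 55603571 to 55610030), the DNA-binding subunit of ISGF3, stood at 52.1, 82.5 and 79.9 FPKM in DKO and at 54.2, 60.6 and 52.3 FPKM in WT. DKO libraries 1 and 2 lay above all WT libraries, and DKO library 0 lay just below them. The log2 fold change of Irf9 was 0.33 (SE 0.19, 95% interval -0.14 to 0.79, limma adjusted p = 0.33). Without DKO library 0 it was 0.54 (limma adjusted p = 0.063), and without DKO library 1 it was 0.21 (limma adjusted p = 0.59). Without both WT library 0 and DKO library 2 it was 0.22. Irf7 (minus strand of chromosome 7, from 141262706 to 141266481), the interferon-inducible amplifier of type I interferon production, was also lowest in DKO library 0 among the DKO libraries, with a wider spread. It stood at 16.1, 38.8 and 40.2 FPKM in DKO and at 25.5, 33.4 and 18 FPKM in WT. The log2 fold change of Irf7 was 0.23 (SE 0.40, 95% interval -0.75 to 1.21, limma adjusted p = 0.74). Its size hung on single libraries, since it was 0.65 without DKO library 0 (limma adjusted p = 0.27), 0.037 without DKO library 1, 0.013 without DKO library 2 0.0090 without WT library 2, 0.44 without WT library 1 and 0.030 without both WT library 0 and DKO library 2.

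Irf3 (plus strand of chromosome 7, from 44997648 to 45002848), the latent factor that TBK1 phosphorylates, was the IRF gene whose groups did not overlap. It stood at 51.9, 54.8 and 48.4 FPKM in DKO and at 42.4, 48.03 and 46.9 FPKM in WT, the lowest DKO library lying just above the highest WT library. The log2 fold change of Irf3 was 0.17 (SE 0.084, 95% interval -0.035 to 0.38, limma adjusted p = 0.26). Of all tested genes 34.1% had groups that did not overlap and 17.0% had all DKO libraries higher, and among the 7 IRF genes it was 1. Irf5 (plus strand of chromosome 6, from 29526625 to 29541871), which acts downstream of Toll-like receptors in myeloid and B cells, stood at 0.550, 0.339 and 0.0221 FPKM in DKO and at 0.333, 0.295 and 0.535 FPKM in WT. These levels were too low for the test and the groups overlapped.

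Several IRF genes and the interferon target lists were low in the same library. DKO library 0 was the lowest of the 6 libraries for 5 of the 7 tested IRF genes (Irf1, Irf2, Irf7, Irf8 and Irf9), while it was the lowest for 15.6% of all tested genes. Irf3 and Irf4 were not lowest there, at 0.093 and -0.06 on the centred log2 scale. It was also the lowest for 16 of 24 ISGF3 target genes and for 17 of 24 target genes of IRF1 and interferon-gamma. On the log2(FPKM + 1) scale, centred on each gene's mean, the median of the IRF1 and interferon-gamma targets was -0.53 in DKO library 0, 0.40 and 0.46 in DKO libraries 1 and 2, and -0.023, 0.32 and -0.42 in WT libraries 0, 1 and 2. DKO library 0 and WT library 2 were thus low within their own groups. Iigp1, an interferon-gamma-induced GTPase, spanned 9.82, 66.2 and 63.4 FPKM in DKO and 46.6, 74.4 and 17.7 FPKM in WT. Iigp1 was picked after its values were seen, and the source of this variation was not tested.

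**Figure D2:**
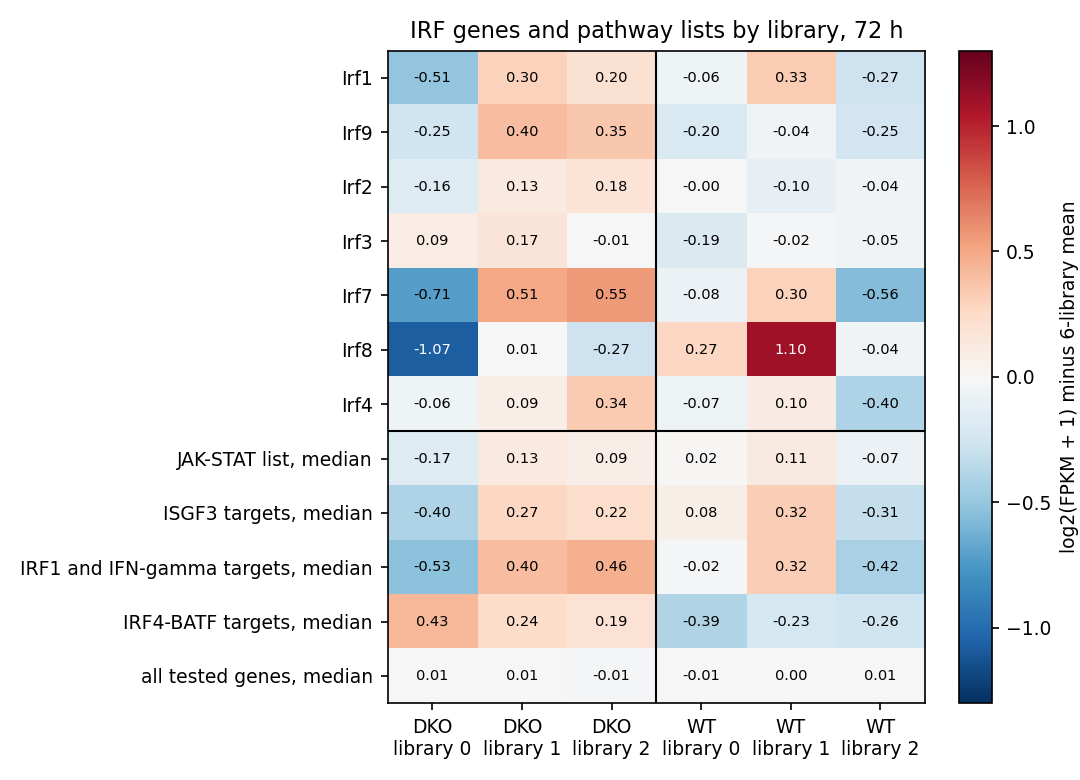
Values of log2(FPKM + 1) minus the gene's mean over 6 libraries, for the 7 tested IRF genes and for the medians of 4 lists and of all tested genes, with DKO libraries left and WT libraries right of the vertical line. DKO library 0 and WT library 2 were low for Irf1, Irf7 and the medians of the interferon target lists, whereas the IRF4-BATF target median was above 0 in all DKO libraries and below 0 in all WT libraries. The lists were chosen with earlier results of these data known. The IRF4-BATF median includes Prdm1, which met the filter only through its DKO values.

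The authors' deposited table also holds their Cuffdiff comparisons of both genotypes at 0 h, before the culture, and of 72 h with 0 h, whose log2 fold changes and q-values are given here as the authors report them. The comparisons share libraries, so they are not independent of each other, and per-library values at 0 h were not used. At q under 0.05 the authors' table calls 4 of the 8 genes for DKO over WT at 0 h, 2 higher and 2 lower. Of its genes, counted as above and so without Irf5, 31.6% are called, 14.7% as higher and 16.9% as lower. Irf7 was higher (log2 fold change 0.76, q = 0.000315, a ratio of 1.70), and so was Irf9 (0.34, q = 0.00163). Irf4 was lower (-0.54, q = 0.000315) and Irf8 was lower (-0.41, q = 0.018). None of these 4 reaches the 2-fold change of the authors' list of called genes, which holds 5.09% of the genes so counted. Irf1, Irf2 and Irf3 had authors' log2 fold changes of 0.088, 0.21 and 0.11, with q of 0.547, 0.074 and 0.431.

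In the authors' comparisons over the culture Irf7 fell the most of the 8 genes in both genotypes. Its authors' log2 fold change at 72 h over 0 h was -1.98 in DKO (q = 0.000232, a ratio of 0.253) and -1.51 in WT (q = 0.000205, a ratio of 0.351). Irf4 was also lower at 72 h in both, with an authors' log2 fold change of -0.59 in DKO (q = 0.000232) and -1.44 in WT (q = 0.000205, a ratio of 0.367). Irf2 had -0.39 in DKO (q = 0.00232) and -0.27 in WT (q = 0.079). For Irf8 the authors' values were -0.40 in DKO (q = 0.082) and 0.42 in WT (q = 0.0366), so the signs differed. Whether the change over time differs between the genotypes was not tested for any of these genes. The authors' table thus calls 3 of 8 genes in DKO, all lower at 72 h, where 45.2% of the genes with an authors' p under 1 are called, 20.4% as lower and 24.8% as higher. In WT it calls 3 of 8, 2 lower and 1 higher, where 47.9% are called, 22.1% as lower and 25.8% as higher. Irf5 is outside the genes so counted in WT. Of these calls the authors list Irf7 in DKO, where they list 9.06% of the genes so counted, and Irf7 and Irf4 in WT, where they list 12.5%. Irf1, Irf3 and Irf9, with authors' log2 fold changes between -0.21 and -0.071 in DKO and between -0.15 and -0.079 in WT, were not called over time in either genotype. Irf5 had p = 1 in the authors' table in every comparison but DKO over time (-0.89, q = 0.061).

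**Figure D3:**
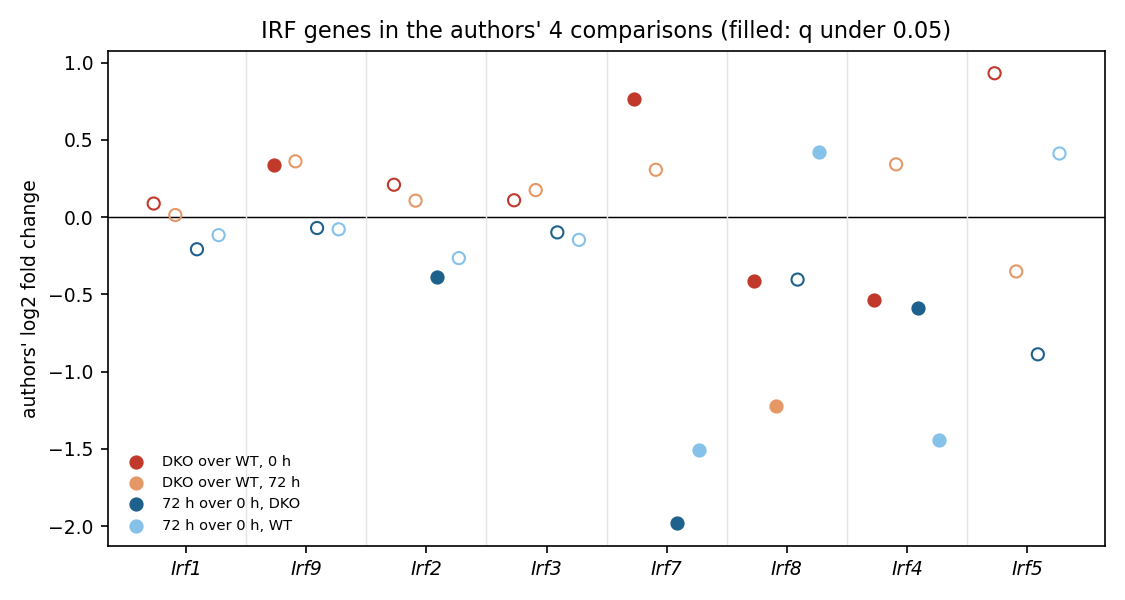
Log2 fold changes of the 8 IRF genes in the authors' deposited comparisons, DKO over WT at 0 h (red) and 72 h (orange) and 72 h over 0 h in DKO (dark blue) and WT (light blue), with filled points at a q under 0.05. By the authors' Cuffdiff, Irf7 was lower at 72 h in both genotypes (-1.98 in DKO and -1.51 in WT). Irf8 was lower in DKO than in WT at both times by the same measure (-0.41 at 0 h and -1.22 at 72 h). At 72 h the Irf8 values of DKO and WT libraries overlapped, and the test over libraries did not call it (limma adjusted p = 0.22).

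Genes that act before and after the IRF proteins were read from 9 lists, which were chosen with earlier results of these data known. Over the lists 108 of 137 genes were tested, 8 were higher and 4 were lower in DKO at a limma adjusted p of 0.05, against 10.7% of all tested genes called. Without Prdm1, for the reason given below, 7 of 107 were higher and 4 lower. The median log2 fold change over the 108 was 0.019. The calls were in the interferon receptors, the IRF4-BATF targets, the partner factors and the upstream adaptors, and none was in the JAK-STAT list or in either interferon target list. Without WT library 0 and DKO library 2, with 2 libraries a group, 0 of the listed genes passed.

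Of 5 tested interferon receptor genes 2 were higher and 1 lower, with a list median of 0.26 on the log2 scale. Ifngr1, the ligand-binding chain of the interferon-gamma receptor, averaged 376 ± 38.0 FPKM in DKO and 201 ± 2.14 FPKM in WT (SD, n = 3 each). The difference for Ifngr1 was 0.90 on the log2 scale (SE 0.10, limma adjusted p = 0.0067). Ifnar1, a chain of the type I interferon receptor, averaged 49.5 ± 3.32 FPKM in DKO and 32.0 ± 3.68 FPKM in WT (log2 fold change 0.62, limma adjusted p = 0.021). Il10rb, which is shared by the receptors for IL-10 and type III interferon, was lower, at 46.8 ± 1.75 FPKM in DKO and 81.5 ± 4.82 FPKM in WT (log2 fold change -0.79, SE 0.076, limma adjusted p = 0.0042). Ifnlr1, the other chain of the type III receptor, was listed at 0 FPKM in all 6 libraries. Ifngr1 and Il10rb passed in each of the 6 fits that left out 1 library. Ifnar1 passed in 2 of the 6, those without WT library 0 or WT library 1, and its limma adjusted p ranged from 0.034 to 0.083 over the 6.

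None of the 9 interferon ligand genes reached the filter. Ifng, which encodes interferon-gamma, stood at 0.284, 0.807 and 0.701 FPKM in DKO and at 0.104, 0 and 0.127 FPKM in WT. These levels did not overlap and were too low for the test. Ifnb1 was listed at 0 FPKM in every library. Of the 11 JAK-STAT genes 0 were called (median log2 fold change -0.024), and the smallest p was that of Tyk2, the kinase bound to IFNAR1, at 21.96 ± 1.73 FPKM in DKO and 17.9 ± 2.71 FPKM in WT (limma adjusted p = 0.21). Among 19 tested sensors, adaptors and kinases (median -0.0087) Slc15a4, a lysosomal transporter needed for endosomal Toll-like receptor signals to IRF5 and IRF7, was lower, at 7.79 ± 0.49 FPKM in DKO and 10.6 ± 0.97 FPKM in WT (log2 fold change -0.40, limma adjusted p = 0.043). It passed in 0 of the 6 fits without 1 library, with limma adjusted p from 0.068 to 0.16.

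Of 12 tested partner factors 2 were lower and 0 higher (median 0.014). Tcf3, which encodes the E proteins that can bind DNA with IRF4 and IRF8, averaged 47.1 ± 3.46 FPKM in DKO and 68.7 ± 5.91 FPKM in WT (log2 fold change -0.53, limma adjusted p = 0.025). Nfatc2, a calcium-activated factor that cooperates with IRF4, averaged 12.3 ± 0.64 FPKM in DKO and 16.5 ± 1.09 FPKM in WT (log2 fold change -0.39, limma adjusted p = 0.030). Each passed in only 1 of the 6 fits without 1 library, Tcf3 in that without WT library 0 and Nfatc2 in that without WT library 1. Batf, the AP-1 partner of IRF4 and IRF8 in T cells, stood at 30.4, 34.99 and 27.8 FPKM in DKO and at 26.5, 45.1 and 31.4 FPKM in WT and overlapped, and Batf3 was listed at 0 FPKM throughout. Jun did not overlap, at 25.3, 37.5 and 32.5 FPKM in DKO and 61.3, 91.2 and 48.3 FPKM in WT. Its log2 fold change was -1.02 (limma adjusted p = 0.063), and Junb and Jund overlapped. Of the 12 partner factors 3 had all DKO libraries lower (Jun, Tcf3 and Nfatc2) and 3 had all higher (Etv6, Bcl6 and Nfatc1). Of all tested genes 17.1% had all DKO libraries lower and 17.0% had all higher. Among 3 tested genes of the list with the IRF2-binding genes (median 0.15) 0 were called, and Irf2bpl came nearest, at 63.3 ± 8.94 FPKM in DKO and 37.9 ± 10.1 FPKM in WT (log2 fold change 0.74, limma adjusted p = 0.078).

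The interferon target lists held no called gene. Of 24 tested ISGF3 targets 0 were called (median log2 fold change -0.076), and the smallest p was that of Oasl1, an oligoadenylate synthetase-like gene, at 3.16 ± 0.54 FPKM in DKO and 2.06 ± 0.51 FPKM in WT (limma adjusted p = 0.16). Of 24 tested targets of IRF1 and interferon-gamma 0 were called (median 0.10), and the smallest p was that of Il15ra, which presents IL-15, at 6.32 ± 1.56 FPKM in DKO and 9.07 ± 2.27 FPKM in WT (limma adjusted p = 0.25). At an unadjusted p under 0.05 there were 1 and 0 genes in these lists, against 26.2% of all tested genes. In both lists the spread between libraries of a group was wide, as described above for DKO library 0.

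The IRF4-BATF targets of T cells had the most calls of the lists. Of 11 tested genes 6 were higher and 0 lower, where 4.31% of all tested genes were higher and 6.36% lower, with a median log2 fold change of 0.39. Since the list was chosen with earlier results of these data known, these counts are a description and not a test of the list. One of the 6, Prdm1, stood at no more than 0.387 FPKM in WT and met the filter only through its DKO values. Without Prdm1 it was 5 higher and 0 lower of 10 tested, with a median of 0.26. Gzmb, the cytotoxic protease granzyme B, averaged 491 ± 69.0 FPKM in DKO and 91.9 ± 28.9 FPKM in WT (log2 fold change 2.44, SE 0.23, limma adjusted p = 0.0041). The inhibitory receptor gene Ctla4 averaged 26.5 ± 2.18 FPKM in DKO and 12.8 ± 1.10 FPKM in WT (log2 fold change 0.99, limma adjusted p = 0.0041). Bhlhe40, a regulator of T cell cytokine production, averaged 7.11 ± 0.57 FPKM in DKO and 3.56 ± 0.11 FPKM in WT (log2 fold change 0.83, limma adjusted p = 0.0044). These 3 passed in all 6 fits without 1 library. The other calls were Il2ra and Icos, which passed in 2 of the 6 fits each. Tnfrsf9, a costimulatory receptor gene of the list, had all DKO libraries below all WT libraries, at 4.999 ± 0.60 FPKM in DKO and 8.42 ± 1.71 FPKM in WT (limma adjusted p = 0.052). Natural killer cell markers, a list that shares cytotoxic genes with T cells, summed to 1461 to 1728 FPKM in DKO and 854 to 1212 FPKM in WT, with 5 of 12 at a mean of at least 1 FPKM and Ncr1 at no more than 0.178 FPKM in any library. The list did not move one way: Gzma averaged 458 FPKM in DKO and 8.77 FPKM in WT, and Cd7 541 FPKM in DKO and 301 FPKM in WT, whereas Nkg7 averaged 590.0 FPKM in DKO and 599.9 FPKM in WT and Eomes was lower, at 9.35 FPKM in DKO and 65.9 FPKM in WT (limma adjusted p = 0.018). Their part in these differences was not tested. Irf4 itself did not pass the test (limma adjusted p = 0.44).

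**Figure D4:**
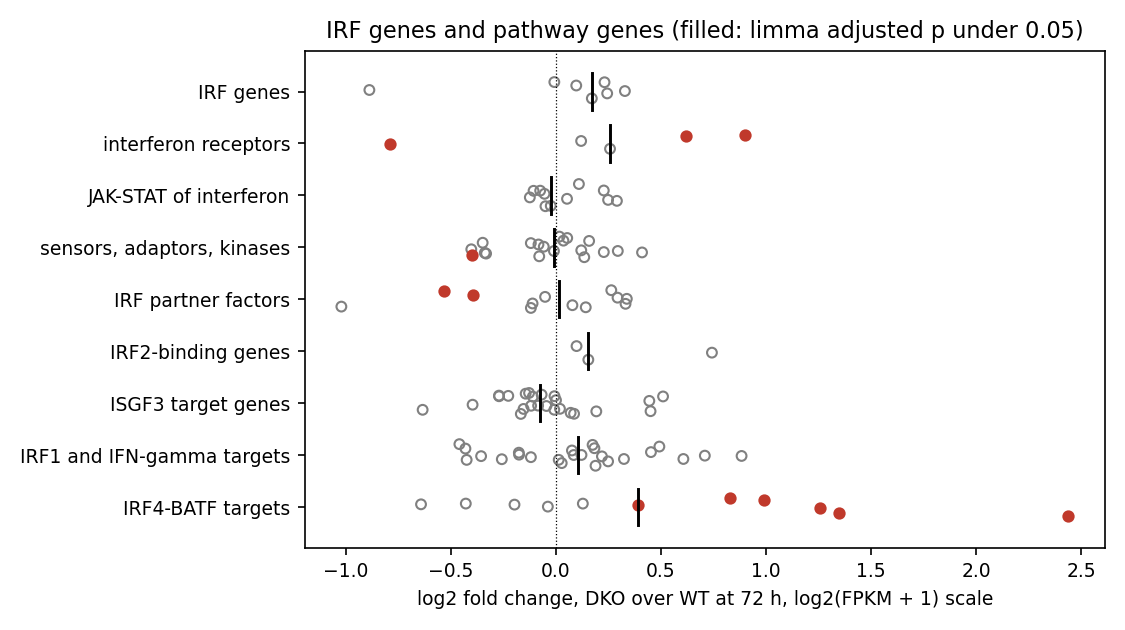
Log2 fold changes, DKO over WT at 72 h on the log2(FPKM + 1) scale, of the tested genes of the IRF set and of 8 lists with tested genes, with black bars at the medians and filled points at a limma adjusted p under 0.05. Filled points lie among the interferon receptors, the sensors and adaptors, the partner factors and the IRF4-BATF targets, where Gzmb is farthest right at 2.44.

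The genes most like Irf8 and Irf9, which had the largest differences in size among the tested IRF genes, were found by the mean absolute difference of centred log2(FPKM + 1) over the 6 libraries. For Irf8 these were Gzmm, a granzyme gene (0.111), Gimap7, a GTPase gene of lymphocytes (0.117), and Insl6, an insulin-like peptide gene (0.140). Gzmm stood at 2.02, 4.49 and 4.06 FPKM in DKO and at 4.97, 10.7 and 3.96 FPKM in WT, with the lowest and highest values in the same libraries as those of Irf8. For Irf9 they were the ubiquitin ligase gene Trim21 (0.063), the MHC class I loading gene Tapbp (0.070) and Tbkbp1, which encodes a TBK1-binding adaptor (0.087). Trim21 stood at 28.1, 41.2 and 41.8 FPKM in DKO and at 31.3, 35.1 and 28.6 FPKM in WT, with DKO library 0 the lowest, as for Irf9. Since these genes were picked for their likeness to Irf8 or Irf9, sharing the lowest or highest library follows largely from that choice. Likeness over 6 libraries is a description and was not tested.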

How the data were processed

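RNA-seq of mouse CD8+ T cells at 72 h with IL-7 and IL-15 was analysed in 3 DKO and 3 WT libraries, grouped by sample title. FastQC, TopHat2 2.1.0, Cuffdiff 2.2.1 and the builds mm9 and mm10 appear in the submitters' processing notes, without the role of either build. The authors deposited FPKM values per library, so absolute depth is unknown, and, for 4 comparisons, q-values, p-values and log2 fold changes from Cuffdiff. Steps between low FPKM values gave relative depths of 1.10 to 1.19 for DKO and 1 to 1.23 for WT. The table's columns for 6 libraries at 0 h, which no sample here matches, were left out. Since column numbers run from 0 to 2 and label replicates from 1 to 3, a column is tied to its group alone.

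On log2(FPKM + 1) of genes averaging 1 FPKM or more, limma 3.58.1 was run in R 4.3.3 (mean-variance trend, two-sided), a scale that understates changes of low genes, with Benjamini-Hochberg adjustment at 0.05 over 10723 genes. The test was checked on simulated data with independent noise for each gene. That check does not cover variation that genes share within a library. Alternatives were other pseudocounts, filters, scalings and variance priors, the column number as a block, and fits without single libraries, in which the filter was recomputed. Members and lists were chosen with earlier results of these data known. From each list up to 3 called genes with the smallest p are named, or else the 1 with the smallest p, and for the 2 members with the largest change the 3 genes of most like pattern. Positions come from GENCODE M21 (GRCm38), to which 22658 rows matched by symbol, and promoters from RefSeq GRCm38.p6. Figures used matplotlib 3.10.9.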

Additional observations from a re-analysis of the deposited data

How the results depend on the processing

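Of 125 values of IRF genes under alternatives, 119 were counted as unchanged, 5 changed sign and 1 passed the threshold. Unchanged values kept their direction and their side of the threshold. The exception was the 1 value of Irf5, which was not tested in the main fit and was judged by the size of its change. The sign changes were all of Irf1, at -0.0069 on the log2 scale, which became 0.016 with upper-quartile scaling, 0.081 without small RNA and ribosomal protein rows (a setting that moved the median of all genes to 0.088), 0.25 without DKO library 0, 0.16 without WT library 1 and 0.013 by the authors' Cuffdiff. Leaving out 1 library moved it between -0.16 and 0.25. The value that passed was Irf8 by the authors' Cuffdiff, -1.22. The count of IRF genes called at 72 h, 0 by limma, was 1 by Cuffdiff and 0 under all other alternatives. The count over all genes, 1144, was 356 with the column number as a replicate block, 388 to 765 without 1 library, 28 without WT library 0 and DKO library 2, and 1886 by Cuffdiff. That over the pathway lists, 12, was 4 with the replicate block, 5 to 10 without 1 library, 0 without these 2 libraries and 29 by Cuffdiff. Of the called receptors, Ifngr1 and Ifnar1 had limma adjusted p of 0.054 and 0.080 with the block and Il10rb 0.039. No label says whether the column numbers pair the samples. Deviations of libraries 0, 1 and 2 in DKO and WT correlated at -0.17, 0.036 and -0.014, which cannot settle this with 3 libraries a group. What the lower counts with the block reflect was not tested. By the authors' list, with its 2-fold minimum, the count of IRF genes was 0 in place of 4 for DKO over WT at 0 h and 1 in place of 3 for DKO over time. The causes were not tested beyond what each alternative changes. FPKM keeps no counts, so the precision of genes below 1 FPKM is unknown. Without the filter Irf5 had a log2 fold change of -0.11 (limma adjusted p = 0.76). In addition, 3 libraries a group limit what the test can call.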
